A study of Mus musculus with 2 samples.

Results

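The leukocyte integrins described here are 7 genes, the alpha chains Itgal, Itgam, Itgax, Itgad and Itga4 and the beta chains Itgb2 and Itgb7, chosen by symbol from a table of 21983 genes. All 7 had an entry, and 6 of them had at least 20 summed counts. The RNA sequenced came from primary mouse chondrocytes, the cells that make cartilage, of wild-type (WT) genotype. The control library came from cells given phosphate-buffered saline (PBS). The second came from cells given recombinant mouse Sparcl1 protein, a secreted relative of the matrix protein Sparc, at 50 ng/ml. Both treatments lasted 3 days, in DMEM with FBS and penicillin/streptomycin, and the labels do not give the animals' age or strain. The question the design poses is which transcripts differ in cultures exposed to added Sparcl1.

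Integrins are adhesion receptors made of 1 alpha and 1 beta chain, and a chain reaches the cell surface only with a partner. The Itgb2 product (CD18) pairs with the products of Itgal (as LFA-1), Itgam (as Mac-1 or complement receptor 3), Itgax (as complement receptor 4) and Itgad. These receptors occur on blood cells, where they carry firm adhesion to ICAM proteins, crawling, uptake of complement-coated particles and contact between immune cells. The Itga4 product pairs with that of Itgb1 (as VLA-4), which binds VCAM-1 and fibronectin, or with that of Itgb7, which binds the gut addressin MAdCAM-1. In a joint they largely mark immune cells such as macrophages rather than chondrocytes, whose own integrins bind collagen and fibronectin.

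The control library held 29858851 counts and the Sparcl1 library 26871933. There was 1 library per group, so no p-value is given and no difference has a replicate check. Every interval below is a 95% interval for counting error only. PCR copies were not marked by molecular identifiers, so reads are not independent and these intervals may be too narrow. Cartilage markers were abundant, with 254556 and 199410 counts of the cartilage collagen gene Col2a1 in the control and the Sparcl1 library. Leukocyte markers were present too: Ptprc, which encodes the pan-leukocyte protein CD45, had 2225 and 1793 counts, and Csf1r, the macrophage growth factor receptor, 10176 and 9091. In such bulk libraries, fewer cells of a type and less RNA per cell cannot be told apart.

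Of the 7 genes 4 had a promoter sequence in the RefSeq-derived table used (GRCm38.p6), namely Itgam, Itgax, Itga4 and Itgb7. The windows of Itgam and Itgax are shown because these neighbours are transcribed in the same direction and Itgam had the largest difference between the libraries. Each runs 5′ to 3′ from 250 bases before the start to 50 bases after it, on the + strand. Capitals mark GAGGAA, the core bound by the myeloid factor PU.1, or TGTGGT, the core bound by RUNX factors, on either strand. The reverse complements are TTCCTC and ACCACA, and the motifs do not overlap each other here.
Itgam, chr7:128062390-128062689: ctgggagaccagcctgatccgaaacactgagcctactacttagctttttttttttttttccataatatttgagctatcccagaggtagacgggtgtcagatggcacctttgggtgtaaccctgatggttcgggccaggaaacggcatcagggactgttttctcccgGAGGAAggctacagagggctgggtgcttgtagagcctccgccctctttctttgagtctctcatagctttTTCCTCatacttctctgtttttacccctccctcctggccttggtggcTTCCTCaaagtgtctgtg
Itgax, chr7:128129300-128129599: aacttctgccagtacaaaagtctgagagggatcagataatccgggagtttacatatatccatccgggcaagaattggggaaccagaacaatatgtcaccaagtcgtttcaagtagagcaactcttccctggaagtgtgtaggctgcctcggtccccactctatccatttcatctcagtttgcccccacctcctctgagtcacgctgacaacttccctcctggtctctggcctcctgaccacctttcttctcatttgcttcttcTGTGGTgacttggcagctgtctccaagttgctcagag
The Itgam window held 3 matches to the PU.1 core, whose first bases lie 84 and 15 bases before the start and at base 33 after it, and none to the RUNX core. The Itgax window held 1 match to the RUNX core, at base 14 after the start, and none to the PU.1 core. Itga4 had 1 RUNX core and Itgb7 had 1 PU.1 core. Among 32851 promoter windows of this length, 28.3% held the PU.1 core and 16.8% the RUNX core. These matches are letters in a window and not evidence of binding. Spi1, which encodes PU.1, had 1661 control and 1757 Sparcl1 counts (log2 ratio 0.20, 0.10 to 0.30), and Runx1 had 3067 and 2600 (-0.12, -0.20 to -0.05).

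Transcripts of 6 of the 7 genes were detected in both libraries, and none of the 6 reached the size set for calling a difference. The order by counts was led by the common beta chain. Itgb2 had 4803 control and 4635 Sparcl1 counts, which is 163 and 170 CPM (counts per 1000000 at scaled library sizes). Itgal followed with 1849 and 1805 counts, or 62.7 and 66.4 CPM. The remaining 4 detected genes lay between 11.5 and 21.5 CPM.

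**Figure D1:**
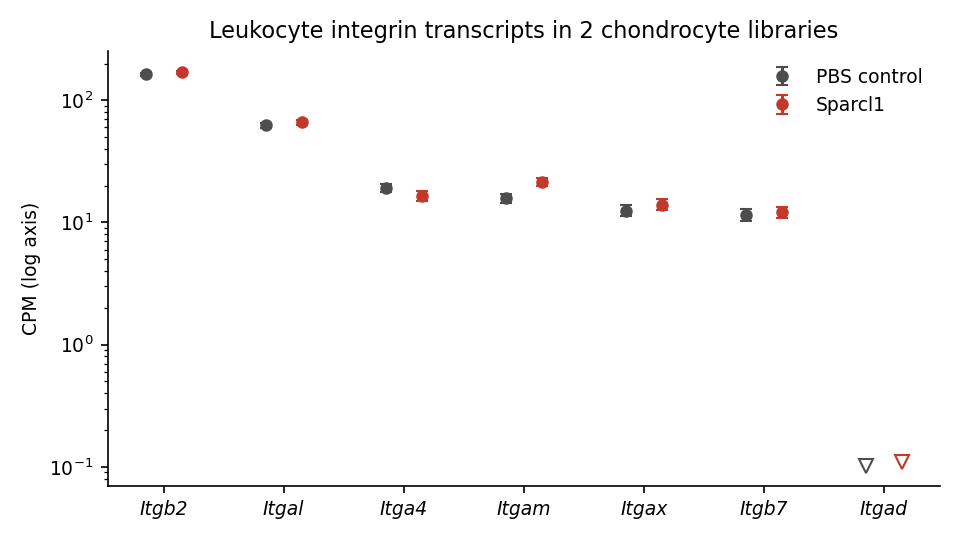
CPM on a log axis for the 7 genes in the PBS control and the Sparcl1 library. Points are single libraries with exact 95% Poisson intervals, and the open triangles for Itgad stand at a floor of 3 counts (0.102 and 0.110 CPM), not at an interval's end. The points of a gene lie close together next to the spread between genes, with the clearest gap at Itgam.

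Itgam, the alpha chain of Mac-1 on macrophages, monocytes and neutrophils, had 465 counts (15.8 CPM) in the control and 585 (21.5 CPM) after Sparcl1. It was the member with the widest gap between the libraries, higher after Sparcl1 by 1.36-fold (interval 1.21 to 1.54), a log2 ratio of 0.45 (0.27 to 0.63). Among 4169 genes whose summed counts lay within 2-fold of those of Itgam, the middle 95% had log2 ratios between -0.42 and 0.42, and 2.11% had a ratio at or above that of Itgam. The value lay just past the upper end of that range, and how far 2 untreated cultures would differ is not known.

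Itgax, the alpha chain CD11c used as a marker of dendritic cells and some macrophages, had 369 counts (12.5 CPM) in the control and 381 (14.0 CPM) after Sparcl1. Its log2 ratio was 0.16, with an interval from -0.05 to 0.37 that spans equal expression. Itgal, the alpha chain of LFA-1 on most leukocytes, had a log2 ratio of 0.08 (-0.01 to 0.18), and its partner Itgb2 was at 0.07 (0.01 to 0.12). The upper ends of these counting intervals stood at 13.0% higher after Sparcl1 for Itgal and 9.0% for Itgb2. With total counts as library sizes the upper ends were log2 ratios of 0.21 and 0.16. With 1 library per group, none of these ends bounds the difference between cultures. Among genes of similar depth, 26.5% had ratios at or above that of Itgal and 26.7% at or above that of Itgb2.

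Itga4 was the only detected member with a lower value after Sparcl1. It had 566 counts (19.2 CPM) in the control and 448 (16.5 CPM) in the Sparcl1 library, a log2 ratio of -0.22 (-0.40 to -0.04). Of 4133 genes of similar depth 11.3% had ratios at or below this one. Itgb7, one of its beta partners, had 340 and 330 counts (11.5 and 12.1 CPM) and a log2 ratio of 0.07 (-0.15 to 0.30). The alternative partner Itgb1, the broadly used beta chain, was far more abundant with 41845 and 35447 counts, at -0.12 (-0.14 to -0.10). Set against Itgb1 counts within each library, Itga4 was 0.934 times the control value (0.823 to 1.06), and set against Itgb7 counts it was 0.816 times (0.667 to 0.997).

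Itgad, the alpha chain CD11d of certain tissue macrophages, had 0 counts in both libraries. A count of 0 allows up to 3 counts, or 0.102 CPM in the control and 0.110 in the Sparcl1 library, so Itgad transcripts were not detectable at this depth. Itgae, the alpha chain of intestinal T cells and some dendritic cells that also pairs with the Itgb7 product, had 10 and 7 counts.

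To be called, a gene needed 20 or more summed counts, a ratio of 2-fold or more and a counting interval that excluded equal expression. Of 13317 genes so tested, 0.954% were higher and 0.946% lower, and 0 of the 6 detected integrin genes were called in either direction. Asking only for a 1.5-fold ratio, 2.32% of genes were higher and 2.35% lower, and still none of the 6 was called. By the interval alone, with no size asked, Itgam and Itgb2 lay above equal expression and Itga4 below it. With total counts as library sizes Itgal also lay above it, at 0.12 (0.02 to 0.21). That is also common in the table as a whole, where 20.1% of genes had an interval above and 21.6% below. The median log2 ratio of the 6 genes was 0.08, with 5 above 0, beside -0.002 over all genes tested, of which 49.6% were above 0.

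**Figure D2:**
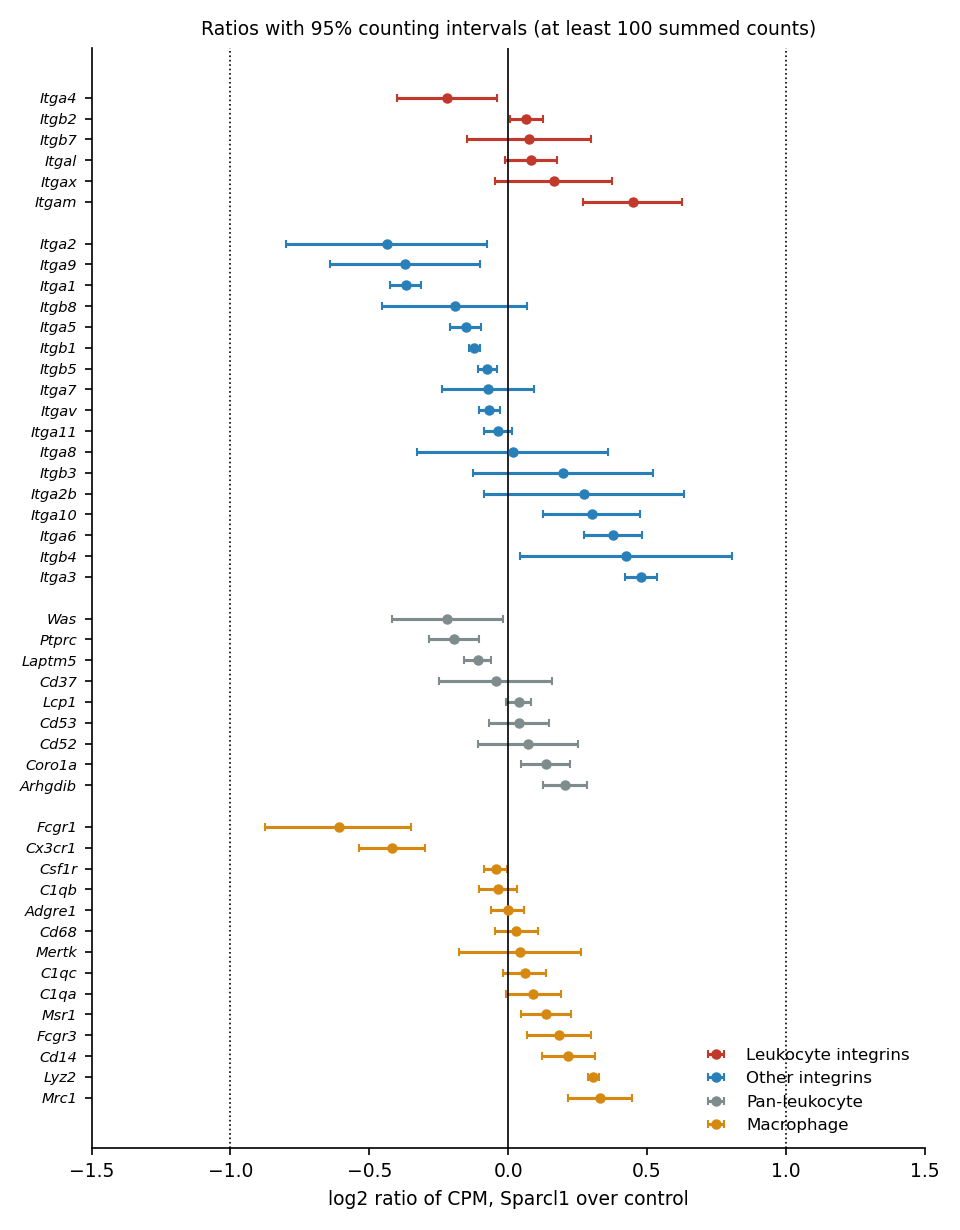
Log2 ratio of CPM, Sparcl1 over control, with 95% counting intervals, for integrin genes, pan-leukocyte markers and macrophage markers with at least 100 summed counts; dotted lines mark the 2-fold size asked for a call. No gene shown reaches a dotted line, and the leukocyte integrins run from -0.22 for Itga4 to 0.45 for Itgam.

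Counts of a chain can also be set against another gene of the same library, which needs no scaling between libraries. Per Itgb2 count, the counts of Itgam were 0.0968 in the control and 0.126 after Sparcl1, a 1.30-fold difference (1.14 to 1.49). Per Itgal count, Itgam differed by 1.29-fold (1.12 to 1.48), and per Itgax count by 1.22-fold (1.005 to 1.48). Within the CD11 alpha chains, then, the counts of Itgam took a larger part in the Sparcl1 library, and against Itgax the interval only just excluded equality. Itgal per Itgb2 was nearly equal in both libraries, at 1.01-fold (0.936 to 1.09), as was Itgb7 per Itgb2 at 1.01-fold (0.857 to 1.18). Itga4 per Itgb2 was 0.820 times the control value (0.718 to 0.936). The widest gap among the members was between the alpha chains Itgam and Itga4, whose counts ratio went from 0.822 to 1.31, a 1.59-fold difference (1.33 to 1.90). Itgam and Itga4 were picked out here after their values were seen.

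The same comparison was made with markers of leukocytes and macrophages. Per Csf1r count Itgam was 1.41-fold higher after Sparcl1 (1.24 to 1.60), per count of Adgre1, which encodes the macrophage surface protein F4/80, 1.37-fold (1.20 to 1.56), and per count of Cd68, a lysosomal marker of macrophages, 1.34-fold (1.17 to 1.53). These 3 markers were themselves close to equal in CPM (log2 ratios of -0.05, -0.00 and 0.03). Over all 14 macrophage markers with at least 100 summed counts, Itgam per marker count ran from 1.09-fold against Mrc1 (0.936 to 1.26) to 2.08-fold against Fcgr1 (1.67 to 2.60), and the interval lay above equality for 12 and spanned it for Mrc1 and Lyz2. Per Ptprc count it was larger, 1.56-fold (1.36 to 1.79). Per count of Lyz2, which encodes the lysozyme of macrophages and neutrophils, it was 1.10-fold, with an interval from 0.975 to 1.25 that spans equality, since Lyz2 was itself at a log2 ratio of 0.31. Itga4 was 0.859 times the control value per Adgre1 count (0.752 to 0.981), 0.841 times per Cd68 count (0.733 to 0.965) and 0.694 times per Lyz2 count (0.612 to 0.788). Per Csf1r count it was 0.886 times (0.778 to 1.01) and per Ptprc count 0.982 times (0.853 to 1.13), both spanning equality. Over the same 14 markers the interval of Itga4 lay below equality for 9, spanned it for 4 and lay above it for Fcgr1. The 14 ratios of Itgam all use the same Itgam counts, and those of Itga4 the same Itga4 counts. They are therefore not independent repeats of a difference. Itgb2 and Itgal changed direction with the reference. Itgb2 was 1.20-fold higher per Ptprc count (1.11 to 1.29) and 0.847 times the control value per Lyz2 count (0.811 to 0.884). Itgal was 1.21-fold higher per Ptprc count (1.11 to 1.33) and 0.856 times per Lyz2 count (0.801 to 0.916).

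**Figure D3:**
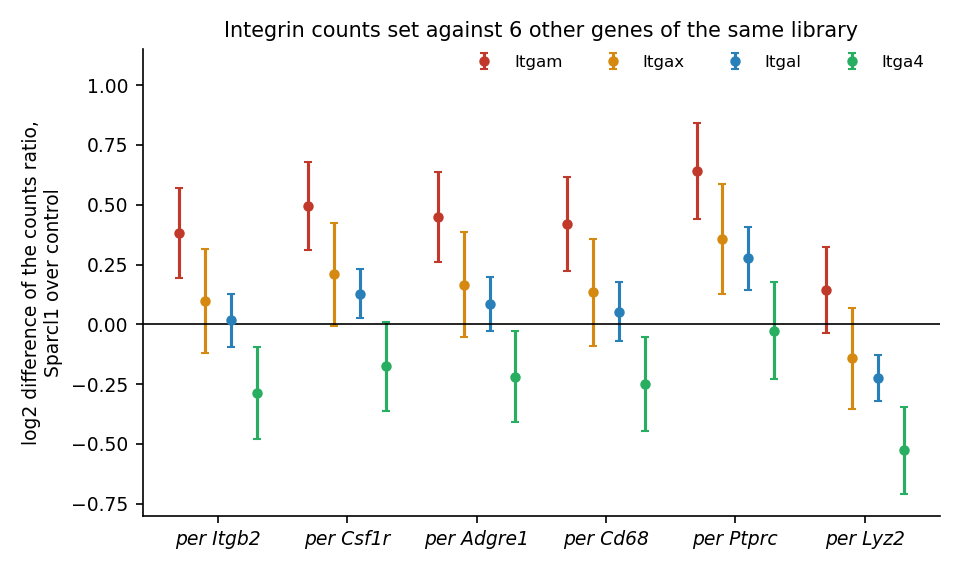
Log2 difference, Sparcl1 over control, of the counts of 4 alpha chains divided by the counts of 6 other genes of the same library, with 95% counting intervals. The interval of Itgam lies above 0 against every gene shown except Lyz2, where it spans 0. Itga4 is the lowest of the 4 against each reference. That order is fixed, because every reference divides all 4 chains by the same counts.

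Levels of different genes can be compared only per length, here as CPM per kilobase of annotated exon. On that scale the control library held 53.3 for Itgb2, 9.54 for Itgal, 4.16 for Itgb7, 3.14 for Itgam, 2.60 for Itgax and 1.37 for Itga4. The Sparcl1 library gave the same order, with 55.8 for Itgb2, 10.1 for Itgal, 4.38 for Itgb7, 4.28 for Itgam, 2.92 for Itgax and 1.18 for Itga4. In the Sparcl1 library the counting intervals of Itgb7 (3.92 to 4.88) and Itgam (3.94 to 4.64) overlapped, so these neighbours were not separated there. In the control the intervals of Itgam (2.86 to 3.44) and Itgax (2.35 to 2.88) overlapped slightly.

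The place of Itgam in this order depends on how its length is counted. Itgam (chromosome 7, 128062640 to 128118491, + strand, GRCm38) shares 3450 of its 5024 exon bases, 68.7%, with Gm49368, a predicted protein-coding gene on the same strand from 128062683 to 128128160. Gm49368 has an entry in the table too, with 2 and 5 counts. HTSeq by default counts a read that lies in exons of both such genes for neither, and the setting used here was not given. Over the 1574 exon bases of Itgam that no other annotated gene shares, its level would be 10.0 CPM per kilobase in the control (9.12 to 10.97), beside 9.54 for Itgal (9.11 to 9.99), and 13.7 after Sparcl1 (12.6 to 14.8), beside 10.1 (9.64 to 10.6). Itgam would then rank 2 in both libraries instead of 4. Whether reads in the shared exons were lost was not tested, and a loss of the same share in both libraries would leave the Itgam ratio between them as it is.

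**Figure D4:**
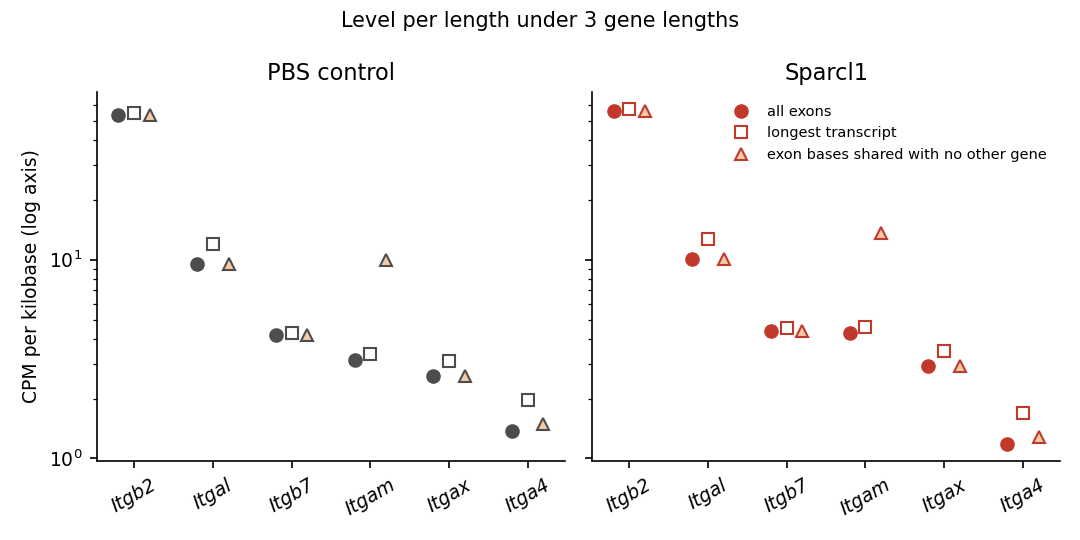
CPM per kilobase on a log axis for the 6 detected genes in each library, with length taken as all exons, as the longest transcript or as the exon bases shared with no other annotated gene. Itgb2 is highest in every case, and Itgam moves from 3.14 to 10.0 in the control and from 4.28 to 13.7 in the Sparcl1 library.

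The alpha chains that pair with the Itgb2 product summed to 15.3 CPM per kilobase in the control and 17.3 after Sparcl1, which is 0.286 and 0.310 of the level of Itgb2. Itgb2 transcripts thus outnumbered those of its alpha partners together in both libraries, also with the longest transcript or unshared exon bases as length, where the share was at most 0.478. Of the alpha sum, Itgal made 62.4% in the control and 58.4% after Sparcl1, Itgam 20.5% and 24.7%, and Itgax 17.0% and 16.9%. Over unshared exon bases, Itgam made 45.2% and 51.2% instead, and Itgal 43.1% and 37.9%. For the other pair, Itga4 stood at 0.330 and 0.269 of the level of Itgb7.

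The genes Itgam, Itgax and Itgad lie together. On chromosome 7, Itgam (placed above), Itgax (128129547 to 128150657) and Itgad (128154376 to 128223816) follow each other on the + strand, with gaps of 11055 and 3718 bases, while Itgal (127296260 to 127335138) lies 727501 bases before Itgam. Of these adjacent genes Itgad thus had no counts while Itgam and Itgax were both detected. Within 100 kb of this group, Pycard, an inflammasome adaptor, was at a log2 ratio of -0.35 (-0.62 to -0.07), picked after its value was seen. The remaining members lie apart: Itga4 on chromosome 2 (79255426 to 79333123, + strand), Itgb2 on chromosome 10 (77530252 to 77565708, + strand) and Itgb7 on chromosome 15 (102215995 to 102231944, - strand). Itga4 shares 8.04% of its exon bases with Cerkl on the opposite strand, which had 19 and 17 counts, and strand was not stated for the counting.

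The remaining integrin subunits, many of them receptors for collagen, laminin and fibronectin on connective tissue cells, also stayed within the 2-fold limit. None of the 18 with at least 20 summed counts was called, beside 0.954% of all genes tested called higher and 0.946% lower. At those shares, lists of this size, here and below, would mostly hold no called gene. Of the 18, 8 had ratios above 1, and their median log2 ratio was -0.05. Among them, Itga3, a laminin receptor chain, was at 0.48 (0.42 to 0.54), and Itgb4, which anchors epithelial cells, at 0.42 (0.04 to 0.81). At the other end, Itga2, a collagen receptor chain, was at -0.44 (-0.80 to -0.08), and Itga9 at -0.37 (-0.64 to -0.10). Itgb5, the second most counted of these genes, was at -0.07 (-0.11 to -0.04). The range of the leukocyte integrins lay inside that of these subunits, and Itgam had a ratio close to that of Itga3.

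Of 16 genes for ligands of the leukocyte integrins, 12 had at least 20 summed counts and none was called. Icam1, the main ligand of LFA-1 and Mac-1, had 3611 and 4560 counts and stood at 0.45 (0.39 to 0.52), close to that of Itgam. Spp1, which encodes osteopontin, a ligand of alpha 4 integrins, was at 0.56, and C3, whose fragment iC3b binds Mac-1, at 0.41. The VLA-4 ligands Vcam1 (3856 and 3283 counts) and Fn1 (701344 and 629977) were at -0.11 and -0.04. Icam5 was at -0.17 (-0.58 to 0.24) and F11r, which encodes the junction protein JAM-A, at -0.27 (-0.53 to -0.02). Madcam1, the ligand of the Itga4 and Itgb7 pair, and the fibrinogen genes Fga, Fgb and Fgg had 0 counts in both libraries. The list median was -0.03.

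Genes that switch integrins to their binding state from inside the cell were measured in 11 of 13 cases, with none called and a median of -0.04. Tln1, which encodes talin, was at -0.15 (-0.18 to -0.12) with 22587 and 18757 counts, and the small GTPase gene Rap1b at -0.11. Fermt3, the kindlin of blood cells that Itgb2 integrins need, had 1276 and 1244 counts (0.08, -0.03 to 0.19), a value like that of Itgb2. Fyb, an adaptor of this pathway, was lowest at -0.25 (-0.37 to -0.14), whereas Rapgef3 and Cyth1 were at 0.24 and 0.21. Rasgrp2, which activates Rap1 in platelets and lymphocytes, had 0 counts in both libraries. The 7 genes that restrain integrins or their activators had a median of 0.08 and none was called, with Dok1 at 0.23, Rap1gap at 0.22, Flna at -0.26 and Cytip, which restrains LFA-1, at -0.26 (-0.63 to 0.10).

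All 14 genes that signal downstream of bound leukocyte integrins were measured, with none called, 10 ratios above 1 and a median of 0.09. The Src family kinase gene Fgr, known for acting behind Mac-1 in myeloid cells, had 162 and 237 counts and the highest ratio of the list, 0.67 (0.37 to 0.96). Fcer1g, an adaptor with an ITAM motif, was at 0.10, Card9 at 0.28 (-0.02 to 0.57), Btk at -0.04 and Ptk2b, a focal adhesion kinase of blood cells, at 0.02. Of 9 genes for transcription factors tied to leukocyte integrin genes, 8 had at least 20 summed counts and none was called, with a median of -0.06. Cebpb, a factor of inflamed myeloid cells, was at 0.42 (0.37 to 0.47), Ets1 at 0.40, Sp1 at -0.11 and Runx3 at -0.17 (-0.39 to 0.06).

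The markers of cells that carry these integrins were counted beside them. All 9 pan-leukocyte markers were present, with summed levels of 866 CPM in the control and 865 after Sparcl1, a median log2 ratio of 0.04 and none called. Ptprc was at -0.19 (-0.28 to -0.10), Was, an actin regulator of blood cells, at -0.22, and Arhgdib at 0.21. All 17 macrophage markers had at least 20 summed counts, and together they held 2480 and 2805 CPM with a median of 0.04. Mrc1, the mannose receptor, was at 0.33 (0.21 to 0.45), and Lyz2, with 39139 and 44617 counts, made up most of the sum. The fractalkine receptor gene Cx3cr1 was at -0.42 (-0.54 to -0.30) and the high-affinity Fc receptor gene Fcgr1 at -0.61 (-0.87 to -0.35). Marco, a scavenger receptor, was the 1 member called, beside 0.954% of all genes tested called higher. It had 6 and 17 counts (1.62, 0.21 to 3.25), which sum to 23, near the limit of 20. Macrophage markers thus lay on both sides of equal expression, and their part in the Itgam difference was not tested.

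Markers of other blood cells differed within each list, with several defining genes at 0 and others clearly present. Of 12 neutrophil markers 6, namely S100a9, Mpo, Elane, Cxcr2, Ngp and Retnlg, had 0 counts in both libraries, and the list held 3.97 CPM in each. Only 3 of the 12 had at least 20 summed counts. Of these S100a8 was called higher from 15 and 31 counts (1.16, 0.23 to 2.16), beside 0.954% of all genes tested, and Csf3r had 80 and 58. For T and NK cells, 9 of 13 genes in the table had 0 counts in both libraries, among them Cd3d, Cd3e, Cd3g, Ncr1 and Nkg7, and Il7r held most of the list's 7.83 and 7.61 CPM. Among the B cell markers Cd79b had 0 counts in both libraries, while Cd79a had 15 and 0 counts and Pax5 13 and 4. Among dendritic cell markers Clec9a, Cd209a and Siglech had 0 counts and Flt3 0 and 1, while Cd207, which encodes langerin, had 1014 and 942. Osteoclast markers had 89.9 and 91.9 CPM, mostly from Ctsk, with Calcr at 0 in both libraries. The mast cell list held 0.542 and 0.368 CPM, and the platelet and endothelial list 5.25 and 5.74 CPM. Chondrocyte markers held 13479 and 11816 CPM, with a median log2 ratio of -0.29 over 12 genes and none called, from Chad at -0.86 to Comp at 0.03.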

How the data were processed

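RNA of 2 libraries was sequenced, 1 per group, and the authors deposited whole-number read counts per gene symbol; columns were matched to libraries by title. The submitters' processing notes name STAR, HTSeq, Trimmomatic and FastQC, and mm10. Versions, annotation, strand setting and the treatment of reads shared between genes are not given in the sources used here.

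Totals of 29858851 and 26871933 counts were scaled by TMM (edgeR 4.0.16, R 4.3.3) to CPM. Log2 ratios carry exact 95% Clopper-Pearson intervals on the Sparcl1 library's part of a gene's counts. Ratios within a library carry conditional exact odds-ratio intervals, and levels exact Poisson intervals (scipy 1.17.1). No ratio was taken where both counts were 3 or lower. Exon lengths, coordinates and overlaps come from GENCODE M21 (GRCm38, which mm10 names), matched by symbol for 21900 of 21983 genes. The log2 ratio, its interval and the rule for calling were tested on simulated Poisson counts, which hold no variation between cultures and no PCR copies. The other steps were not simulated. The members and 17 further gene lists (185 entries, 2 not matched: Trac and Trbc2) were chosen with earlier results of these data known. Named genes are all 7 members and, of each list, those called, the 2 highest and 2 lowest ratios with at least 100 summed counts and the 2 most counted; others serve as pathway or marker examples picked after their values were seen. The values of some list members are not reported here. Alternatives were total counts, DESeq2 1.42.0 and upper-quartile scaling, other count and size limits, a prior count of 2 and other gene lengths.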

Additional observations from a re-analysis of the deposited data

How the results depend on the processing

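The log2 ratios of the 6 detected members moved by at most 0.04 under total counts, DESeq2 and upper-quartile scaling and a prior count of 2. Itgam ran from 0.44 to 0.48 and Itga4 from -0.22 to -0.19, with no interval changing side of 0 except that of Itgal under total counts (0.02 to 0.21), and no member was called under any of these or under the other count and size limits. The number of genes called higher went from 127 to 201 with no filter on counts and to 20 with at least 100 summed counts. With a 1.5-fold limit it was 309. The number called lower went from 126 to 183, 38 and 313 under the same settings, in that order. The summed alpha chains over Itgb2 went from 0.286 (control) and 0.310 (Sparcl1) to 0.337 and 0.362 with the longest transcript as length. With exon bases shared with no other gene, a length chosen after seeing the data, they were 0.415 and 0.478. With the longest transcript, Itgam and Itgb7 changed places in the Sparcl1 library. The median of the ligand list was 0.01 with total counts and -0.05 with at least 100 summed counts. No paired analysis was possible because each group has 1 library. For the same reason no library could be left out. At this depth the half-widths of the counting intervals ran from 0.06 (Itgb2) to 0.22 (Itgb7) on the log2 scale. They leave out the spread between cultures, so the smallest difference that could be seen is not known.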
